A study of Saccharomyces cerevisiae with 42 samples.

Results

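One hour after dilution from saturation, at the first hourly sample after the 0 h one, 3 libraries of budding yeast treated with myriocin (Myr) were compared with 3 libraries given vehicle. These are 6 of the 42 libraries of a time course with hourly samples from 0 to 6 h, taken by the treatment and hour in their labels, and the comparison runs over all 6106 yeast genes of the table, of which 5983 were tested, those whose level averaged 1 TPM (transcripts per 1000000) or more over the libraries of 1 to 6 h. All cells were BY4741, a MATa strain with met15-Δ0, ura3-Δ0, leu2-Δ0 and his3-Δ1, made prototrophic by the plasmid pHLUM, so treated and control cells share these deletions and the plasmid copies of the missing genes. Saturated cultures were diluted to an A600 of 0.15 in 200 ml of SDC, a complete synthetic medium, and grown at 30°C with 700 ng/ml Myr in 0.3% ethanol or with 0.3% ethanol alone. Synthetic spike-in RNAs were added as mix 1 to vehicle and mix 2 to Myr samples.

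Myr inhibits serine palmitoyltransferase, the enzyme that joins serine and palmitoyl-CoA in the first step of sphingolipid synthesis. Cells that leave saturation shut off the genes of the resting state, restart ribosome production and re-enter the division cycle. In yeast the transcription factor Yap1 turns on genes against oxidants and electrophiles, among them thioredoxin, glutathione enzymes, NADPH-dependent reductases and drug efflux pumps, through short promoter elements.

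At 1 h the largest differences were losses. Of 5983 genes, 325 passed limma's moderated test at an adjusted p under 0.05 (5.43%), 180 lower with Myr (3.01%) and 145 higher (2.42%), and the median log2 change over all genes was 0.01. Called losses of at least 2-fold numbered 40 (0.669%) and called gains of that size 16 (0.267%). The deepest losses belonged to reductases, drug pumps and redox enzymes whose mRNAs stood at 1 h in vehicle far above their level at 2 h. The largest gains among genes that averaged 10 TPM or more belonged to short, uncharacterised genes (YHR050W-A 1.80 and YLR342W-A 1.55 on the log2 scale), and 14 of 19 mating genes and 8 of 12 cell separation genes were higher at list medians of 0.49 and 0.53. TPM are shares of each library, so a gene can rise in them because others fell, and with bulk RNA fewer cells that express a gene and less of its RNA per cell cannot be told apart. Scaling each library to the spike-in level of 0 h in the same treatment moved the median of all genes up from 0.01 to 0.36 (log2). The calls moved to 314 higher and 42 lower, so directions below are relative to the median of all genes. After centring on the median 387 genes were higher (6.47%) and 334 lower (5.58%). Groups that did not overlap were found for 322 of the 325, beside 536 of all genes with Myr above (8.96%) and 611 with Myr below (10.2%).

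**Figure D1:**
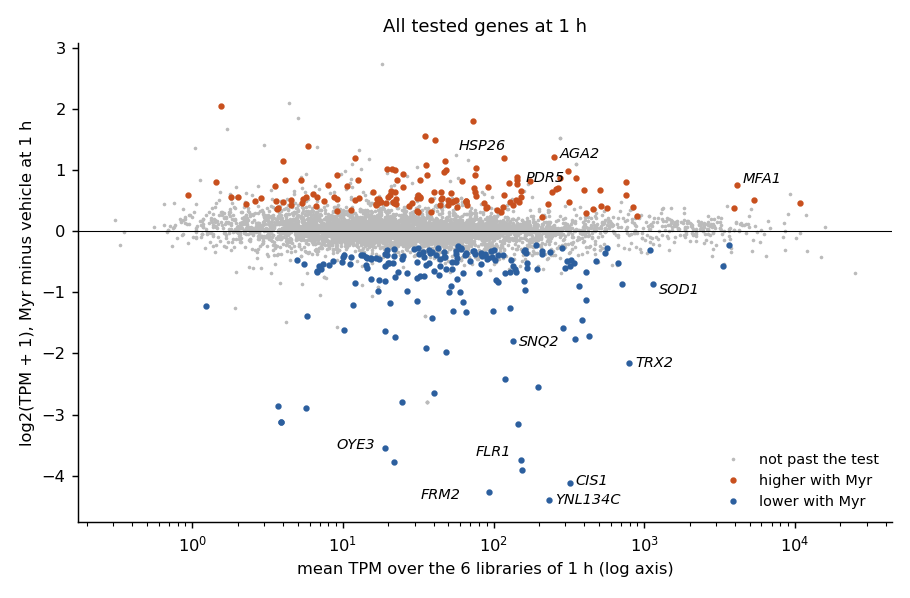
Log2 change at 1 h (Myr minus vehicle, y axis) against the mean level over the 6 libraries of 1 h (TPM, log axis), 1 point a gene, with the genes past the test coloured. The 180 lowered genes reach to a log2 change of -4.40 (YNL134C), while the 145 raised genes reach to 2.04 (YPL038W-A, listed at 0 in all 3 vehicle libraries).

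The depth of the 6 libraries is unknown, since TPM carry none. Libraries A and B of a group differed by a median of 0.0757 (Myr) and 0.0805 (vehicle) on the log2 scale over genes, whereas library C differed from its own A and B by 0.196 to 0.225 and from A and B of the opposite treatment by 0.131 to 0.142, so by this measure each C library went against its label. By Pearson's r across genes, which are not independent, each C library was nearer to its own group (0.988 to 0.991) than to A and B of the opposite one (0.983 to 0.984), and FLR1 stood at 233 TPM in vehicle C and at 18.5 TPM in Myr C, beside 324 and 293 TPM in vehicle A and B and 19.9 and 22.2 TPM in Myr A and B. Whether the C libraries were exchanged or handled apart was not tested. The share of short transcripts showed the same order: genes under 400 coding bases held 41.7% of the vehicle C library and 44.7% of the Myr C library, against 44.8% to 45.7% in vehicle A and B and 41.5% to 42.1% in Myr A and B. Without both C libraries 173 genes were higher and 106 lower, with the median of all genes at 0.14. The markers of mating type a were high in all libraries, those of mating type alpha summed to at most 63.6 TPM over 4 genes, and those of meiosis to at most 52.4 TPM over 10 genes. The 4 plasmid-borne prototrophy genes summed to 1020 to 1092 TPM in vehicle and 1000 to 1098 TPM with Myr. Per the study's methods the hours of a replicate came from 1 flask, so libraries of different hours are repeated samples. The vehicle columns carry 4 letters over the hours for 3 replicates, no source ties a letter to a flask, and the fits treat the libraries as separate. The p-values of the 1 h comparison rest on an error pooled over the 36 libraries of 1 to 6 h. They do not rest on the spread of these 6 libraries alone.

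The stretches from 250 to 101 bases upstream of the start codon of 5 of the most lowered genes are shown because they hold the letters by which Yap1 elements are known, here in capitals: TTACTAA, or TTAGTCA, on either strand (RefSeq sequence, build R64). The 5 copies in OSI1 lie at chrXI:304864-305013 (+), and the other stretches at chrII:254310-254459 (FLR1), chrXVI:227472-227621 (OYE3), chrVII:913328-913477 (TRX2) and chrXIV:373682-373831 (YNL134C), all of these on the minus strand and printed 5′ to 3′ along the gene.
OSI1: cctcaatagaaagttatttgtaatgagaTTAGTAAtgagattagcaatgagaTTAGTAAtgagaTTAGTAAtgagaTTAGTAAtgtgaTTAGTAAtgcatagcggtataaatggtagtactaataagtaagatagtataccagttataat
FLR1: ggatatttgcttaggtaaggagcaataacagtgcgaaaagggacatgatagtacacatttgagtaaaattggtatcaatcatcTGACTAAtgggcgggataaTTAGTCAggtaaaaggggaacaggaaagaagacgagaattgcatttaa
OYE3: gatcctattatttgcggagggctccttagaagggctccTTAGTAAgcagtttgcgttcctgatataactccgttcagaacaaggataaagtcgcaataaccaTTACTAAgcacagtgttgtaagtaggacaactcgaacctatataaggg
TRX2: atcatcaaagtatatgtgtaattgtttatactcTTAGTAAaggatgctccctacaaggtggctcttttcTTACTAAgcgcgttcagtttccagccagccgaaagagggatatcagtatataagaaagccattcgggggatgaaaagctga
YNL134C: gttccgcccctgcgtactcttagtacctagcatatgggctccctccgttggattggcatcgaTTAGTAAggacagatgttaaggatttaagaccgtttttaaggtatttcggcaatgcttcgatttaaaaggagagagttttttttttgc

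Over the window from 250 bases before to 50 bases after the start codon, TTACTAA occurred in 35 of the 180 lowered genes (19.4%), 14 of the 145 raised genes (9.66%) and 446 of all 5981 windows (7.46%). TTAGTCA occurred in 18 lowered genes (10%), 2 raised genes (1.38%) and 223 windows (3.73%). At least 1 of both forms stood in 52 lowered genes (28.9%), 16 raised genes (11%) and 657 windows (11%), in 19 of the 40 genes lowered by at least 2-fold (47.5%), and in 9 of the 15 genes with the largest losses. In SNG1 the match lies at the start of the coding sequence, and the other 6 of the 15 lack these letters in this window. Both motifs were added after the values were seen. A match is a description of the sequence and does not show binding. None of the 9 other motifs searched holds the letters of these forms. AGGGG (stress response) was in 26.7% of lowered and 29% of raised windows against 21.7% of all, and GATGAG (ribosome biogenesis) in 14.4% and 12.4% against 20.1%. CACGTG (Pho4) was in 5.56% of lowered, 1.38% of raised and 2.99% of all windows. CCTTNAAGG (zinc) was in 2 lowered windows (1.11%) and 1 raised window (0.69%), against 0.435% of all. TCCGCGGA (drug response) was in 1 lowered window (0.556%) and 0 raised ones, against 0.201%. For CATGTGAA (inositol) the shares of lowered, raised and all were 1.11%, 0.69% and 0.719%, and for TGACTC (Gcn4) 9.44%, 8.28% and 8.13%. In the same order TCGTATA (sterol) had 2.78%, 4.14% and 4.15%, and GAANNTTC (heat shock) 13.9%, 9.66% and 11.9%.

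The first of 2 courses among the lowered genes was a burst in vehicle at 1 h that was small or absent with Myr. FLR1, a drug efflux transporter of the plasma membrane, stood at 324, 293 and 233 TPM in vehicle libraries A, B and C and at 19.9, 22.2 and 18.5 TPM with Myr. The groups lay far apart, with the lowest vehicle library above every Myr library. This was 14-fold less with Myr (log2 change -3.74 ± 0.13 SE, adjusted p = 4.25e-20, n = 3 and 3, limma). In vehicle the mean of FLR1 was 22.3 TPM at 0 h, 283 at 1 h and 22.9 at 2 h, whereas with Myr it was 19.3, 20.2 and 23.0 TPM.

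OSI1, whose window carries 5 elements, read 331, 301 and 234 TPM in vehicle and 18.4, 20.4 and 15.6 TPM with Myr. The groups did not overlap, and the difference was 15.9-fold (-3.91 ± 0.14, adjusted p = 3.08e-19, limma). FRM2, a nitroreductase relative, read 203, 185 and 146 TPM in vehicle and 9.10, 7.02 and 8.55 TPM with Myr. It thus stood 21.7-fold lower (-4.27 ± 0.20, adjusted p = 1.71e-16), and its vehicle mean had been 5.40 TPM at 0 h. ATR1, a transporter that confers aminotriazole resistance, read 213, 203 and 190 TPM in vehicle and 34.6, 38.4 and 38.4 TPM with Myr. Its mean with Myr was 24.4 TPM at 0 h and 37.1 TPM at 1 h, beside 19.4 and 202 TPM in vehicle.

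SNQ2, an ABC pump for many drugs, read 210, 206 and 210 TPM in vehicle and 57.2, 55.7 and 64.5 TPM with Myr. Its mean level at 1 h stood above that of 0 h in both treatments, at 208 after 20.2 TPM in vehicle and at 59.1 after 19.3 TPM with Myr, and was 3.52-fold lower with Myr at 1 h (-1.80 ± 0.13, adjusted p = 1.25e-11, limma). GPX2, a glutathione peroxidase chosen after its values were seen, read 690, 649 and 653 TPM in vehicle and 219, 200 and 184 TPM with Myr. Its means at 0 h had been 54.7 and 51.2 TPM, below both groups of 1 h. GRE2, a methylglyoxal reductase, had means of 85.5 and 336 TPM at 0 and 1 h in vehicle, and of 65.8 and 56.7 TPM with Myr. SNG1, known for resistance to nitrosoguanidine, stood at 66.6 to 72.5 TPM in vehicle and at 10.1 to 10.8 TPM with Myr.

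In the second course the mRNA was already high at 0 h in both treatments, and at 1 h it was still high in vehicle and low with Myr. OYE3, an NADPH dehydrogenase of the old yellow enzyme family, had means of 34.0 TPM in both treatments at 0 h. At 1 h it read 43.4, 35.2 and 28.4 TPM in vehicle and 1.64, 2.22 and 2.49 TPM with Myr, with no overlap. The difference was 16.9-fold (-3.55 ± 0.16, adjusted p = 2.73e-17, limma), and the vehicle mean came down to 2.61 TPM only at 2 h.

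TRX2, the cytosolic thioredoxin that Yap1 is best known to control, read 1543, 1373 and 968 TPM in vehicle and 277, 273 and 306 TPM with Myr. Vehicle library C was the lowest of its group and still above all Myr libraries (-2.15 ± 0.19, adjusted p = 4.22e-10, limma). At 0 h its means had been 1017 TPM in vehicle and 1237 TPM with Myr. GTT2, a glutathione transferase, had 0 and 1 h means of 72.1 and 77.3 TPM in vehicle and of 66.2 and 19.0 TPM with Myr. SRX1, the sulfiredoxin that repairs over-oxidised peroxiredoxins, had means of 53.5 and 57.1 TPM and of 41.4 and 14.5 TPM. GSH1, which makes the first intermediate of glutathione and was chosen after its values were seen, had 57.6 TPM at 1 h after 91.8 TPM at 0 h in vehicle, and with Myr 20.8 TPM after 98.7 TPM.

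YNL134C, an alcohol dehydrogenase relative, and CIS1 joined both features, since they were high at 0 h and higher at 1 h in vehicle. YNL134C read 528, 448 and 356 TPM in vehicle and 21.8, 18.6 and 19.1 TPM with Myr at 1 h, after means of 283 and 225 TPM at 0 h. This was the largest loss among genes that averaged 10 TPM or more (22.4-fold, -4.40 ± 0.14, adjusted p = 1.07e-20, limma). CIS1 read 744, 574 and 494 TPM in vehicle and 38.2, 24.4 and 40.3 TPM with Myr, after 289 and 296 TPM at 0 h. The remaining members of the 15 were YLR460C (-3.78), YML131W (-3.15) and AAD4, an aryl-alcohol dehydrogenase relative (-2.79). Wherever they were tested, all of the 15 stayed past the test in each alternative processing, also without both C libraries.

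**Figure D2:**
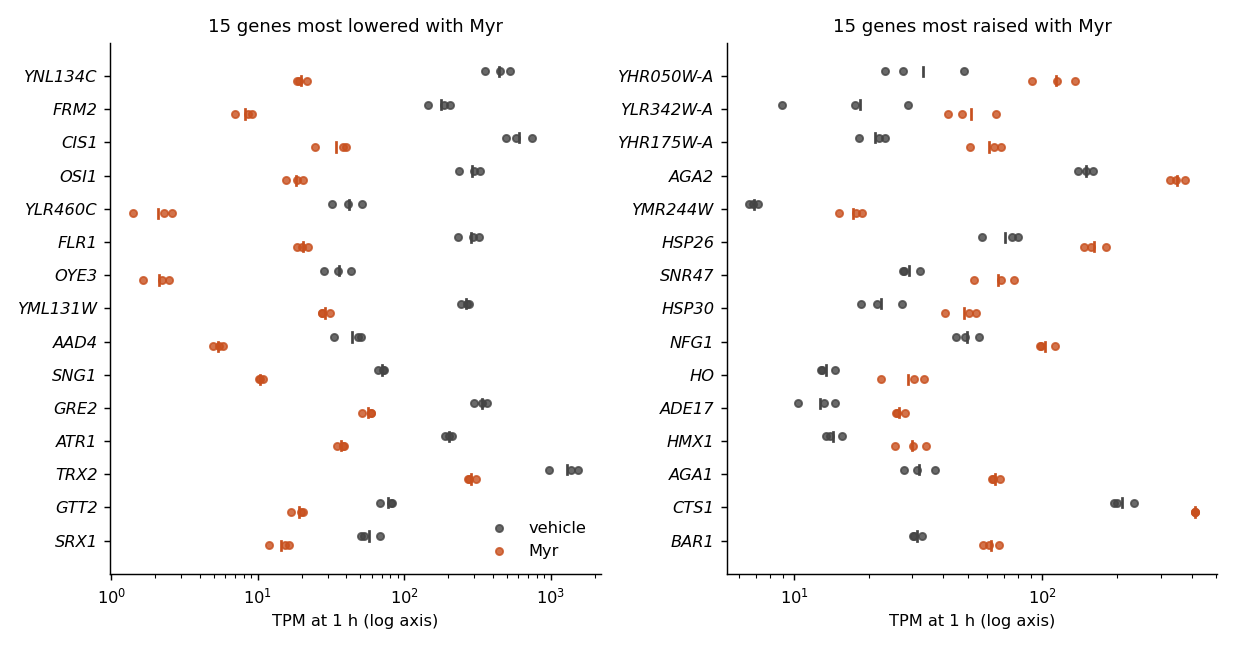
TPM of leading lowered and raised genes in each of the 6 libraries of 1 h (log axis), 1 point a library. For FLR1 the vehicle points lie at 233 to 324 and the Myr points at 18.5 to 22.2, and for AGA2 at 139 to 161 and 328 to 377.

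**Figure D3:**
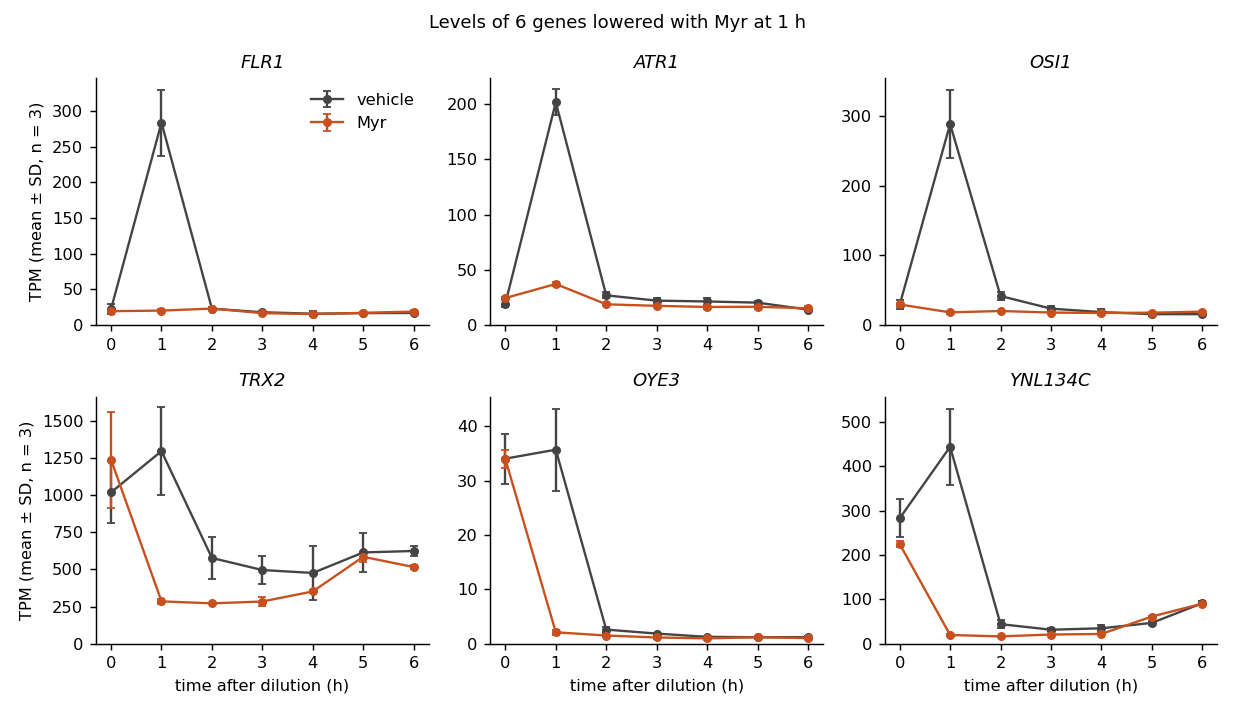
Mean TPM (linear axis from 0) by hour from 0 to 6 h of FLR1, ATR1, OSI1, TRX2, OYE3 and YNL134C in vehicle and Myr, with the SD of 3 libraries as bars. FLR1 peaks at 283 TPM in vehicle at 1 h and lies between 15.3 and 23.0 TPM with Myr, and OYE3 is below its 0 h level of 34.0 TPM from 1 h with Myr and from 2 h in vehicle.

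These courses can be counted, as a description only, since the vehicle level at 1 h took part in the choice of genes. In 52 of the 180 lowered genes (28.9%) all 3 vehicle libraries of 1 h were above all vehicle libraries of 0 h and 2 h, as in 26 of the 40 lowered by at least 2-fold (65%) and 11 of the 15. Over all genes tested the same held for 1112 (18.6%). With Myr, a 1 h level above those of 0 h and 2 h was found for 20 of the 180 (11.1%), 8 of the 40 and 2 of the 15, and for 810 of all genes (13.5%).

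Among 28 genes of oxidative stress defence, 18 were lower and 0 higher, with a median log2 change of -0.55 beside 0.01 over all genes. The 18 span the thioredoxin arm (TRX2, TRR1, TSA1, AHP1, PRX1), the glutathione arm (GSH1, GSH2, GLR1, GPX2, GTT2), the superoxide dismutases SOD1 and SOD2, cytochrome c peroxidase CCP1, the reductases OYE2, OYE3, AAD4 and AAD14, and YAP1 itself. Members not past the test included TRX1 (-0.24), the catalase CTA1 (0.01), the second oxidant regulator SKN7 (0.11) and HYR1 (0.31), the peroxidase that activates Yap1. Without both C libraries 16 were lower, with 1 library left out 17 or 18, and with spike-in scaling 7 lower and 1 higher at a median of -0.20, below the 0.36 of all genes in that scaling. At 0 h the median drug effect over this list was -0.01, beside 0.07 over all genes. For 13 of the 28 members the effect at 1 h differed from that at 0 h, as for 6.23% of all genes.

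The changes of SOD1, CCS1, TSA1 and TRR1 were smaller than those of TRX2, GTT2, SRX1 and GPX2. SOD1, the cytosolic superoxide dismutase, read 1483, 1504 and 1419 TPM in vehicle and 823, 786 and 806 TPM with Myr, which was 1.83-fold lower (-0.87 ± 0.08, adjusted p = 4.02e-09, limma), with a drug effect of -0.45 already at 0 h (adjusted p = 0.00103). Its copper chaperone CCS1, chosen after its values were seen, was lower still (553, 561 and 561 against 262, 273 and 236 TPM, -1.12). TSA1, the main peroxiredoxin, went from 883, 951 and 943 to 515, 491 and 516 TPM, and TRR1, the thioredoxin reductase, from 470, 483 and 479 to 264, 264 and 236 TPM. All 4 showed tight groups without overlap, although SOD1, TSA1 and TRR1 lost their call when scaled to spike-ins. YAP1 mRNA itself was near the threshold at 43.7, 43.8 and 53.4 TPM in vehicle and 40.6, 34.3 and 31.9 TPM with Myr (-0.39 ± 0.12, adjusted p = 0.047, limma). That call was lost without vehicle A, B or C or Myr B or C.

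Further lowered genes with roles in detoxification, all chosen after their values were seen, were the nitric oxide dioxygenase YHB1 (-1.77), the NADPH-dependent alcohol dehydrogenase ADH6 (-1.46), the vacuolar glutathione-conjugate pump YCF1 (-1.14) and YRR1, a regulator of drug pumps (-1.72). HSP31, a methylglyoxal-converting chaperone relative, went from 96.0, 82.3 and 80.7 TPM to 40.8, 33.6 and 40.2 TPM (-1.16). It was the single lowered member of 26 heat shock and chaperone genes, of which 3 were higher (median 0.11).

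Drug pumps moved apart. Of 18 multidrug transporters and their regulators, 3 were lower (FLR1, ATR1, SNQ2) and 1 higher, with a median of -0.02. PDR5, the broadest ABC drug pump of yeast, read 113, 93.8 and 110 TPM in vehicle and 190, 181 and 170 TPM with Myr. It was 1.71-fold higher without overlap (0.77 ± 0.15, adjusted p = 0.00126, limma) and differed by -1.40 (log2, adjusted p = 3.17e-07) from the mean of its later drug effects. Its hourly drug effects were -0.30, 0.77, 1.77, 2.15, 2.43, 2.72 and 1.75 from 0 to 6 h, so 1 h was the first hour with a call.

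The genes of the inhibited pathway were close to equal. Of 5 genes for serine palmitoyltransferase and its Orm regulators 0 passed the test in limma (1 at an unadjusted p under 0.05, median 0.03). LCB1 and LCB2, the catalytic subunits, had log2 changes of 0.12 and 0.03 with overlapping groups (82.7 to 102 against 91.7 to 107 TPM for LCB1). ORM1 and ORM2, the inhibitory subunits, had 0.01 and 0.28, with ORM2 at 68.7, 73.9 and 88.6 TPM in vehicle and 100, 96.9 and 83.5 TPM with Myr (adjusted p = 0.161, limma). Further down the pathway, 2 of 11 genes of ceramide synthesis were higher, the ceramide synthase LAC1 (36.1, 33.4 and 43.2 against 52.5, 52.5 and 47.0 TPM, 0.43) and the hydroxylase SUR2 (87.4, 95.2 and 116 against 136, 135 and 120 TPM, 0.39). Both calls were lost when A or B of either treatment was left out. Among 10 genes of long-chain base turnover, YSR3, a phosphatase of phosphorylated long-chain bases, was lower (40.2, 42.4 and 48.4 against 27.0, 27.4 and 22.8 TPM, -0.74) and the ceramidase YDC1 was higher (0.33, with the call lost in 5 of the 6 omissions of a library). The YSR3 call was lost with spike-in scaling. The 7 genes of complex head groups and the 15 of TORC2 and Ypk signalling had 0 calls in limma (1 and 0 at an unadjusted p under 0.05).

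Other membrane lipid genes had few calls. Of 20 genes of inositol and phospholipid synthesis 17 lay below 0 (median -0.12), beside 2770 of all 5983 genes, 2 were lower and 1 higher. The lower ones were CHO2, a phosphatidylethanolamine methyltransferase (-0.37), and the inositol transporter ITR1 (-0.33). Neither was called with spike-in scaling or without both C libraries, and both calls were lost without C of either treatment. INO1, which makes inositol phosphate, read 25.8, 27.6 and 26.0 TPM in vehicle and 39.8, 35.6 and 41.4 TPM with Myr (0.54 ± 0.15, adjusted p = 0.0256, limma). That call was lost when any library other than Myr B was left out. Of 23 ergosterol genes 4 were lower (ERG5 -0.69, ERG2 -0.35, ERG25 -0.31, ERG4 -0.28), with a list median of -0.07. The call of ERG25 was lost in 5 of the 6 omissions of a library and that of ERG4 without either C library. With spike-in scaling none of these 4 was called, and ERG2, ERG25 and ERG4 changed sign to 0.01, 0.05 and 0.08, less than the shift of all genes.

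Lower with Myr were also acid phosphatases, sulfur genes and permeases. Of 21 phosphate starvation targets 5 were lower and 1 higher (median -0.26), and 3 were lower without vehicle A or Myr C. PHO12, a secreted acid phosphatase, read 146, 138 and 144 TPM in vehicle and 54.8, 58.4 and 57.5 TPM with Myr (-1.31 ± 0.10, adjusted p = 1.09e-11, limma), and PHO11 changed by -1.32. The sequences of PHO11 and PHO12 are near-identical and can share reads, so their split is uncertain. PHO5, a further acid phosphatase, went from 63.1, 64.2 and 65.7 TPM to 44.2, 44.3 and 37.1 TPM. Without both C libraries 4 of the 21 were lower, and with spike-in scaling 2 lower and 2 higher at a median of 0.09.

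Of 28 genes of methionine synthesis and sulfate assimilation 6 were lower (median -0.17), led by SAM2, an S-adenosylmethionine synthetase (68.6, 69.5 and 66.3 against 36.1, 35.4 and 36.7 TPM, -0.90), and followed by MET16 (-0.55), STR3 (-0.53, lost in 5 of the 6 omissions) and MET5 (-0.53, lost without vehicle A or Myr C). A list of 20 genes held amino acid permeases, the SPS amino acid sensor (SSY1, PTR3, SSY5) and its factors STP1 and STP2. Of these 20, 4 permeases were lower and 16 genes were not called (median -0.05). The 4 were the S-adenosylmethionine permease SAM3 (-0.82), the methionine permease MUP1 (-0.67), the S-methylmethionine permease MMP1 (-0.56) and BAP3, for branched-chain amino acids (-0.35). MUP1 read 175, 147 and 151 TPM in vehicle and 98.0, 100.4 and 98.1 TPM with Myr, with no overlap. In both lists 0 members were called with spike-in scaling, where the medians were 0.18 and 0.30 against 0.36 over all genes. Without both C libraries 4 of the 28 sulfur genes were lower, and the call of BAP3 was lost.

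The proteasome showed a small shift shared by its genes. All 33 measured members, subunits and the regulator RPN4, lay below 0 (-0.08 to -0.48, median -0.29), in 29 of them all Myr libraries were below all vehicle libraries, beside 10.2% of all genes, and 10 passed the test, among them RPN8 (160, 143 and 155 against 110, 108 and 109 TPM), PUP3, RPN5 and PRE10. The count rests on small changes. It was 3 to 7 without 1 library, the lowest without vehicle C (RPN5 lost its call with any library left out), 2 without both C libraries and 27 after median centring, and with spike-in scaling 0 were called and the list median was 0.06, below the shift of all genes. For 31 of the 33 the drug effect at 1 h was lower than at later hours, as for 15.6% of all genes, whose median of this difference was -0.21. UBI4, the stress-induced polyubiquitin gene, read 98.8, 97.7 and 95.3 TPM in vehicle and 101, 92.7 and 92.3 TPM with Myr (-0.03), and its drug effect at 1 h differed by -0.76 from the mean of the later ones (adjusted p = 7.58e-08, limma).

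**Figure D4:**
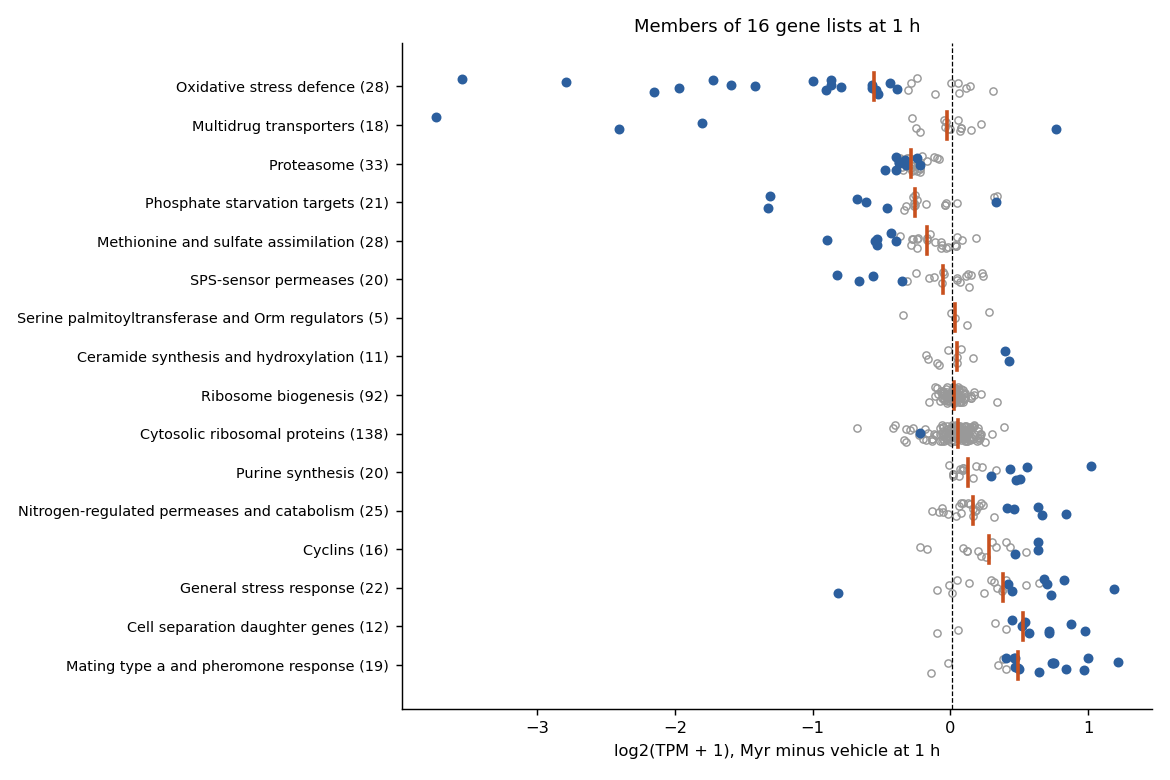
Log2 change at 1 h of each member of the main gene lists, 1 point a gene, with the list median as a bar. Of the 16 lists drawn, oxidative stress defence lies lowest (median -0.55), mating (0.49) and cell separation (0.53) highest, and ribosome biogenesis at 0.02.

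Of the lists, that of mating held the most raised genes. Of its 19 genes for mating type a and the pheromone response 14 were higher and 0 lower (median 0.49), 15 were higher without both C libraries, and 10 to 15 with 1 library left out. AGA2, the binding subunit of the a-agglutinin, read 139, 150 and 161 TPM in vehicle and 328, 377 and 346 TPM with Myr. It was 2.34-fold higher with no overlap (1.22 ± 0.15, adjusted p = 8.36e-07, limma), and its anchor AGA1 was 2.02-fold higher (1.00). BAR1, the protease that degrades alpha-factor, read 30.3, 30.5 and 32.9 TPM in vehicle and 61.1, 67.0 and 57.9 TPM with Myr.

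The a-factor gene MFA1, chosen after its values were seen, read 2874, 3268 and 3029 TPM in vehicle and 4707, 5234 and 5541 TPM with Myr (1.69-fold). FUS1 and FIG1, which act in cell fusion and in mating growth, were higher at lower levels (5.15 to 6.33 against 8.75 to 11.1 TPM, and 2.21 to 3.43 against 4.49 to 6.92 TPM). Of 4 markers of the other mating type 0 were called in limma (2 at an unadjusted p under 0.05). MF(ALPHA)1 read 13.9, 17.2 and 16.4 TPM in vehicle and 25.9, 22.1 and 25.9 TPM with Myr (adjusted p = 0.113) and MF(ALPHA)2 had a log2 change of -0.26, and the 4 alpha markers summed to 43.8 to 54.6 against 56.0 to 63.6 TPM. Their part in the result was not tested. The mating list was already higher at 0 h by a median of 0.32, beside 0.07 over all genes. At 0 h AGA2 had 0.69 (adjusted p = 0.00242, limma).

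Genes of cell separation, which daughter cells switch on to part from the mother, rose in 8 of 12 cases with 0 lower (median 0.53; 9 without both C libraries, 6 to 9 with 1 left out). CTS1, the chitinase that cuts the septum, read 195, 201 and 234 TPM in vehicle and 413, 411 and 412 TPM with Myr. All Myr libraries lay above all vehicle libraries, and the difference was 1.97-fold (0.98 ± 0.12, adjusted p = 3.92e-07, limma). DSE2 (238, 229 and 284 against 484, 457 and 434 TPM), SCW11 and DSE1, daughter-specific wall proteins, rose by 0.88, 0.72 and 0.71. For this list too the drug effect was present at 0 h, with a median of 0.75, beside 0.07 over all genes. The cell wall list, which shares CTS1, DSE1, DSE2, DSE4, EGT2, SCW11 and CHS1, had 9 of 37 higher and 0 lower (median 0.23), and 16 higher with spike-in scaling. Its only called members outside the cell separation list were PIR1 (0.64), SCW10 (0.60) and SCW4 (0.42).

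PCL1, CLB6 and POL30 had drug effects of opposite sign at 0 h and 1 h. The cyclin list of 16 genes also holds the regulators WHI5, SWI4, SIC1 and FAR1. It had a median of -0.05 at 0 h and of 0.28 at 1 h, beside 0.07 and 0.01 over all genes. FAR1 is counted in the mating list too. Of these 16 genes 3 were higher at 1 h (PCL2 and CLB6 by 0.64, PCL1 by 0.47), a count that became 2 without A or B of either treatment and 7 without both C libraries. PCL1 read 96.2, 105 and 122 TPM in vehicle and 158, 161 and 130 TPM with Myr at 1 h, but at 0 h its drug effect had been -0.90 (adjusted p = 3.12e-04, limma) and that of CLB6 -0.72. POL30, the sliding clamp of DNA replication, had drug effects of 0.48 at 1 h and -0.88 at 0 h, although its call at 1 h was lost in 5 of the 6 omissions. HO, the mother-cell endonuclease gene, read 12.8, 12.9 and 14.6 TPM in vehicle and 33.3, 30.4 and 22.4 TPM with Myr at 1 h (1.02 ± 0.18), and its effect was 1.72 above that at 0 h.

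Part of the general stress genes were also higher. Of 22 general stress genes 7 were higher and 1, DDR48, lower (-0.81, not called with spike-in scaling), with a median of 0.38. The 11 markers of saturated or quiescent cells had 2 higher members, HSP26 and HSP12, and none lower, although SPG4 (-0.40), SNO1 (-0.38) and SNZ1 (-0.23) lay below 0, and summed to 643 to 706 TPM in vehicle and 825 to 910 TPM with Myr. The count of 7 was 4 without vehicle B or Myr A, and 8 without vehicle C. HSP26, a small heat shock protein, read 80.0, 75.8 and 57.2 TPM in vehicle and 180, 148 and 158 TPM with Myr (1.19 ± 0.15, adjusted p = 1.3e-06, limma). Its means at 0 h had been 6415 TPM in vehicle and 6925 TPM with Myr, 90.4 times the mean of 1 h in vehicle and 42.7 times that with Myr. SPI1, a wall protein of resting cells, read 130, 117 and 130 TPM in vehicle and 227, 215 and 228 TPM with Myr, and its ratios of 0 h to 1 h were 38.2 and 25.6. The same ratios were 30.9 and 18.6 for PBI2, an inhibitor of vacuolar proteinase B, and 71.1 and 42.9 for the enolase gene ENO1. For HSP12 they were 22.9 and 9.54, but its call at 1 h was lost with any 1 library left out.

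Genes were also put in classes by their vehicle level at 2 h against 0 h, in libraries outside the comparison. Of 2005 genes at least 2-fold lower at 2 h, 69 were higher with Myr at 1 h (3.44%) and 91 lower (4.54%). Among 608 genes at least 2-fold higher at 2 h, the same counts were 23 (3.78%) and 9 (1.48%), and among the 3370 between, 53 (1.57%) and 80 (2.37%). The class medians were 0.02, 0.05 and 0.00. Among 161 genes at least 16-fold lower at 2 h, a class added after the values were seen, 20 were higher (12.4%) and 6 lower (3.73%), with a median of 0.17.

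Smaller groups also had gains. Of 20 purine genes 6 were higher and 0 lower, with ADE17, an enzyme of the last steps to IMP, at 10.4, 13.2 and 14.6 TPM in vehicle and 26.1, 27.9 and 25.7 TPM with Myr (1.02 ± 0.15, adjusted p = 1.58e-05, limma), ADE2 at 0.55, ADE12 at 0.51 and ADE1 at 0.47. The count was 2 without Myr B, 3 without Myr A, vehicle A or vehicle B, and 6 without either C library. Of 25 nitrogen-regulated genes 5 were higher (2 without vehicle A or Myr A), among them the proline permease PUT4 (3.12, 3.71 and 3.59 against 7.65, 7.03 and 6.37 TPM, 0.84) and the GABA transaminase UGA1 (0.67). HMX1, the heme oxygenase, read 13.4, 13.9 and 15.6 TPM in vehicle and 34.0, 30.2 and 25.5 TPM with Myr.

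By size the list of 15 gains also holds short, uncharacterised genes with scattered values. YHR050W-A read 48.3, 23.3 and 27.5 TPM in vehicle and 114, 136 and 91.3 TPM with Myr (1.80 ± 0.46, adjusted p = 0.0141, limma), and was not past the test without both C libraries (adjusted p = 0.06575). YLR342W-A (1.55) and YHR175W-A (1.49) lost their calls there as well. The other members of the 15 were YMR244W (1.20), the snoRNA SNR47 (27.5 to 32.2 against 53.2 to 77.0 TPM), the membrane heat shock gene HSP30 (1.08) and NFG1 (1.04).

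The machinery of growth differed little. Of 92 ribosome biogenesis genes 0 were called in limma (1 at an unadjusted p under 0.05, beside 911 of all 5983 genes). Their median was 0.02, whereas their median drug effect at 0 h was 0.50, beside 0.07 over all genes. Of 138 cytosolic ribosomal protein genes 1 was lower, RPL10 (-0.22), a call that median centring and removal of the coding-length trend lost and spike-in scaling turned to 0.14. RPL41A, among the shortest of them and chosen after its values were seen, read 34466, 33024 and 25433 TPM in vehicle and 17237, 16492 and 24678 TPM with Myr. Its C libraries nearly met, and it was not called (adjusted p = 0.256). Genes of the respiratory chain (36), the tricarboxylic acid cycle (21) and ubiquitin (11) had 0 calls each, and 4, 2 and 1 members at an unadjusted p under 0.05 in limma. GCN4, the regulator of amino acid synthesis, read 850, 818 and 868 TPM in vehicle and 1034, 1037 and 903 TPM with Myr (0.23, adjusted p = 0.411).

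Many losses of 1 h differed from the drug effect at other hours by the test of that difference in limma. Of 5983 genes, 373 had a drug effect at 1 h that differed from 0 h (6.23%), 145 of them higher (2.42%) and 228 lower (3.81%) at 1 h. After median centring these were 600 (10%) and 484 (8.09%). Of the 180 lowered genes 96 were in that lower set, and 18 had been called lower at 0 h already. Of the 145 raised genes 62 were in the higher set, and 32 had been called higher at 0 h. At 0 h itself, in the fit of all 42 libraries, 494 of the 5983 genes were called higher with Myr and 217 lower. These counts were larger in each direction than those of 1 h. Against the mean of 2 to 6 h, 1009 genes differed (16.9%), with 76 higher (1.27%) and 933 lower (15.6%) at 1 h. Among them were 150 of the 180 lowered genes and 35 of the 145 raised ones in the same direction. The 1 h values that chose the 180 and 145 genes enter both difference tests, so these overlaps are a description only. Over all genes the median difference from the later hours was -0.21. After median centring 389 were higher (6.5%) and 567 lower (9.48%), so the uneven split of 76 to 933 holds for TPM as deposited. The count of 1009 was 486 without vehicle C and 459 without Myr C. With the column letter as a block, in the libraries whose letter stands in both treatments, 135 genes differed from 0 h and 1565 from the later hours, and the flask was not modelled.

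By hour, the median drug effect over the 15 most lowered genes was -0.04 at 0 h, -3.15 at 1 h, -0.60 at 2 h, -0.32 at 3 h, -0.05 at 4 h, 0.04 at 5 h and 0.26 at 6 h. Over the 15 most raised genes it was 0.38, 1.08, 0.64, 0.36, 0.50, 0.32 and 0.20. Over all genes tested the medians of the same hours were 0.07, 0.01, 0.20, 0.27, 0.14, 0.31 and 0.15. The values at 1 h chose the lowered and raised genes. Those at the other hours did not enter the ranking, but per the methods they come from the same flasks. The libraries of 2 to 6 h also entered the pooled error of the test. The other hours are therefore not independent of the choice.

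**Figure D5:**
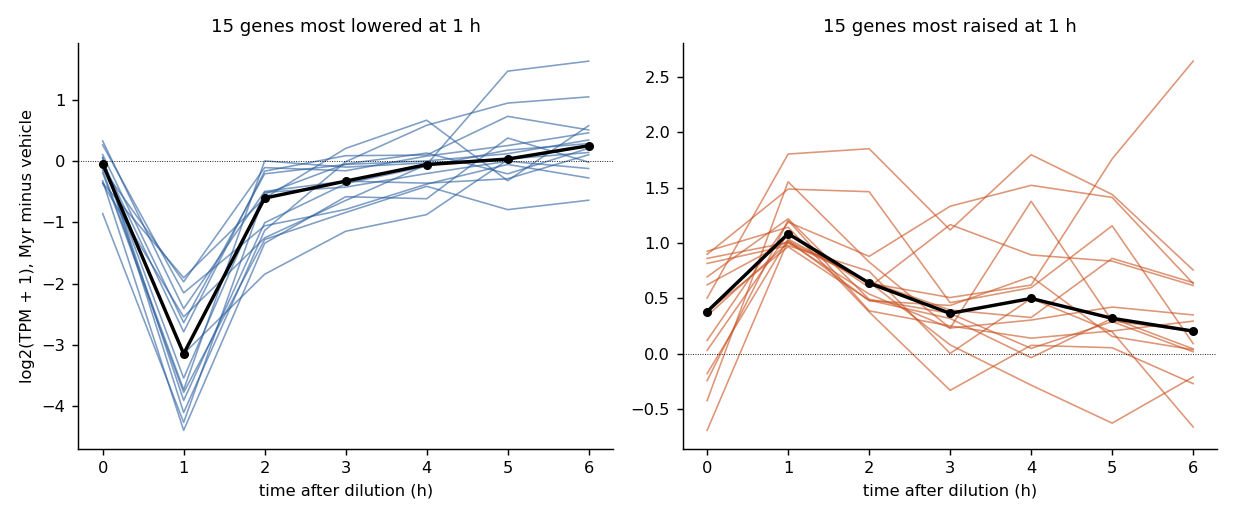
Log2 drug effect (Myr minus vehicle) from 0 to 6 h of the 15 most lowered and 15 most raised genes at 1 h, 1 line a gene with the medians in bold. The lowered genes have a median of -0.04 at 0 h, -3.15 at 1 h and -0.60 at 2 h.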

How the data were processed

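RNA-seq of prototrophic BY4741 was measured by the authors in 42 samples, 3 in each of 14 groups. Per the labels and methods, they selected polyadenylated RNA with a stranded kit, called bases with bcl2fastq 2.17.1.14, cut adapters by Trimmomatic 0.36, quantified transcripts of R64 and 92 spike-ins by Salmon 0.8.2, and deposited TPM per library without pooling. Each column adds to 1000000. Read counts were not used here, so depth and counting error are unknown, and precision rests on replicates. Of the columns of samples, 0 were left unused. Columns were mapped by treatment and hour. Their letters carry no replicate number. Per the methods the hours of a replicate shared a flask, which the models leave out.

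After removal of spike-ins, 5983 genes that averaged 1 TPM or more over 36 libraries of 1 to 6 h were kept. A model with 12 group means was fitted to log2(TPM + 1) with limma 3.58.1 in R 4.3.3 (empirical Bayes, variance trend, two-sided, Benjamini-Hochberg over 5983 genes, threshold 0.05), so fold changes in log2 understate those of low genes. Folds without log2 are ratios of mean TPM. The difference from 0 h came from a fit of all 42 libraries with 14 group means. The other steps used Python 3.11.15 with pandas 2.3.3 and matplotlib 3.10.9. The fit was tested on simulated data with independent noise in each library. Those data held no shared flasks and no shift of the C libraries, so they cannot show how the fit deals with either. Sequences and coding lengths came from RefSeq R64, with 6103 of 6106 gene identifiers matched.

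The comparison, gene lists and tests were chosen with earlier results of these data known. Lists are described by counts and medians, with no set test. Genes named were the 15 largest changes in each direction among called genes that averaged 10 TPM or more over the 6 libraries and had groups that do not overlap, up to 4 called members of each list described (up to 3 members with the highest mean where none was called), the 5 largest in each direction of both difference tests, and always UBI4, MUP1, LCB1, LCB2, ORM1, ORM2, INO1 and GCN4. Other genes are said to be chosen after their values were seen, or are given as members counted in a list. Alternatives were spike-in scaling, median centring, pseudocounts of 0.1 and 10, a filter at 10 TPM or none, removal of a trend on coding length (loess, span 0.5), removal of RPL41A and RPL41B, no variance trend, only the hours compared, the column letter as a block, and leaving out each library. Added after seeing the data were median centring with only the 1 h libraries or with a library left out, leaving out both C libraries, and the Yap1 motifs.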

Additional observations from a re-analysis of the deposited data

Results flagged for a closer look

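The drug effect differed between 1 h and 0 h by limma's test of the difference in 373 genes. Among genes that averaged 10 TPM or more at 1 h, the largest differences towards a higher effect at 1 h were in YLR285C-A (2.16), YLR342W-A (1.98), HO (1.72), TOS6 (1.56) and YOR394C-A (1.46) on the log2 scale, and those towards a lower effect in CIS1 (-4.18), YNL134C (-4.08), OSI1 (-3.97), YLR460C (-3.59) and FLR1 (-3.59).

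The effect at 1 h differed from the mean of 2 to 6 h in 1009 genes. It was higher at 1 h in ZRT1 (1.87), a zinc transporter, SPL2 (1.68), YIL046W-A (1.34), TIP1 (1.33) and SNR48 (1.23), which at 1 h itself had changes of 0.08, -0.68, 1.02, 0.33 and 0.79, and lower at 1 h in CIS1 (-4.4), FRM2 (-4.19), YNL134C (-3.97), FLR1 (-3.75) and OSI1 (-3.72). With 3 libraries a group, single libraries were not tested as outliers.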

How the results depend on the processing

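Without RPL41A and RPL41B the count of genes that differed from 0 h was 577, with only the hours compared 158, and with the letter block 135, beside 373. Median centring gave 387 higher and 334 lower genes at 1 h and 1084 that differed from 0 h. Spike-in scaling gave 314, 42 and 91, and the coding-length trend removed 458, 391 and 1110. Centring with only the 1 h libraries gave 225 and 285, and centring with 1 library left out 264 to 378 and 254 to 297. Without both C libraries 106 genes were lower. Leaving out 1 library gave 89 to 155 higher genes, 130 to 154 lower, 279 to 293 that differed from 0 h and 459 to 973 that differed from the later hours. With the letter block 1565 genes differed from the later hours. Scaled to spike-ins, BNA1 changed sign to 0.064, ERG2 to 0.00896, ERG25 to 0.052, ERG4 to 0.075, HIS5 to 0.015, ITR1 to 0.029 and RPL10 to 0.14. In that scaling the median of all genes moved from 0.01 to 0.36, which is above each of these values. The cause of this shift was not tested. Of 125 called genes that were named, 56 kept direction and call in every alternative and 69 lost the call in at least 1. No paired analysis was possible because the columns carry no replicate number, and the letter block stands on letters that no source ties to the replicates. Same-letter deviations correlated at -0.02, -0.19 and -0.30. TPM give no depth, so counting error at low levels cannot be stated.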
